A study of Homo sapiens with 12 samples.

Results

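The HOX cluster genes are homeobox genes that lie side by side in the HOXA, HOXB, HOXC and HOXD clusters. A list of 38 coding members was looked up by gene symbol in a deposited table of 57500 genes, and each of the 38 was found. The list holds 10 genes of HOXA, 10 of HOXB, 9 of HOXC and 9 of HOXD. They were followed in 12 RNA-seq libraries of HCC1806 and MDA-MB-468, a pair of established human lines derived from breast tumours of the triple-negative class, which lack hormone receptors and HER2 amplification. The study depleted PACT, a double-stranded RNA binding protein encoded by PRKRA, by CRISPR-Cas9. HCC1806 cells carried the control guide sgC1 or the PACT guide sgPACT-2, and MDA-MB-468 cells carried the control guide sgNTA or the same sgPACT-2, with 3 libraries in each of the 4 groups. The label sgPACT-2 is the only PACT guide in these libraries. Neither the time after guide delivery nor the use of a clone or a pool of cells is given in the sources used here. Nothing in the labels says that the 3 libraries of a group came from separate cultures, so p-values measure the spread between these libraries, which may be technical. Because the control guide differs between the lines, line and control guide cannot be told apart in any comparison of controls. The same holds where the effects of sgPACT-2 are compared between the lines.

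HOX genes encode homeodomain transcription factors. The number in each name gives the paralog group, which is also the gene's place in its cluster, from the low-numbered 3′ end to the high-numbered 5′ end. In the embryo the genes are switched on in that order along the body axis, and adult epithelia such as the mammary gland keep part of the pattern. Trithorax proteins keep HOX genes active, Polycomb proteins keep them silent, and retinoic acid and CDX factors set the pattern early. HOX proteins bind DNA together with the TALE homeodomain cofactors of the PBX, MEIS and PKNOX families.

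In GENCODE 29 (GRCh38) the listed HOXA genes span chr7:27100354-27200106, the HOXB genes chr17:48528526-48729178, the HOXC genes chr12:53938765-54056030 and the HOXD genes chr2:176092891-176190907. HOXA and HOXB are on the minus strand, and HOXC and HOXD on the plus strand. The 250 bases before the transcription start are printed here for a pair of HOXD genes that had 0 counts in MDA-MB-468, HOXD13 and HOXD11, and for a pair of HOXA genes that were expressed in both lines, HOXA6 and HOXA10. The sequences are from RefSeq (GRCh38.p14) and are written 5′ to 3′ on the strand of the gene. Each CpG is in capitals, since CpG-rich promoters are the usual places of Polycomb binding. None of the 4 windows holds an exon base of GENCODE 29. The HOXD11, HOXA6 and HOXA10 windows lie within introns of their longer GENCODE gene models, and the HOXD13 window lies before the gene. HOXA10 has another RefSeq window, not printed, with 19 CpG and all 250 bases exonic. The windows are chr2:176092471-176092720 (HOXD13, plus), chr2:176107030-176107279 (HOXD11, plus), chr7:27147775-27148024 (HOXA6, minus) and chr7:27174321-27174570 (HOXA10, minus).
HOXD13: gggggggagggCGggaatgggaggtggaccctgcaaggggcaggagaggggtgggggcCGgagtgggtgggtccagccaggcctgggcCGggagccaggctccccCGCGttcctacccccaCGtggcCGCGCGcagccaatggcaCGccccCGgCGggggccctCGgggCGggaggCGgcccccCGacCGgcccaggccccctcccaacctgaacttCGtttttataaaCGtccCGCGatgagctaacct
HOXD11: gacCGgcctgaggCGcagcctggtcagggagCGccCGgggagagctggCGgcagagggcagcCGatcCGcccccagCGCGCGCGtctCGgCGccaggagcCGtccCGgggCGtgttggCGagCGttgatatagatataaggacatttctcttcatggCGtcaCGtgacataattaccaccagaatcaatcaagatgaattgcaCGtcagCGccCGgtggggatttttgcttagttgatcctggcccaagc
HOXA6: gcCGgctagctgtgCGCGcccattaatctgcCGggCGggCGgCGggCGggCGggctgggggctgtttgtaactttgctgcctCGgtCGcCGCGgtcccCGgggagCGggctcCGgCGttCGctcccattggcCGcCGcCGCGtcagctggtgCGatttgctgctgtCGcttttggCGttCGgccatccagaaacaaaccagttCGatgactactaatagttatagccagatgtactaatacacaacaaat
HOXA10: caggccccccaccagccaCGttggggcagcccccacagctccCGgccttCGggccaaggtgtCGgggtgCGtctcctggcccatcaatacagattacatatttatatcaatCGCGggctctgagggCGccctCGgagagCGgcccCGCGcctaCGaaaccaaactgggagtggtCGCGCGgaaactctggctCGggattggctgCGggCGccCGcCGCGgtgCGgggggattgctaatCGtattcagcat

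These windows held 21 CpG in HOXD13, 23 in HOXD11, 27 in HOXA6 and 24 in HOXA10, so the pair with 0 counts in MDA-MB-468 and the expressed pair were alike in CpG number. The median over the 35116 windows of the RefSeq table was 11, with quartiles of 3 and 23. The table held 27 windows for 20 of the 38 members. The 8 HOXD members with a window had a median of 22 CpG, ranging from 4 to 31, and the other 19 windows had a median of 14, ranging from 0 to 40. The letters TATAAA, searched on both strands, occurred in 5 of the 27 windows, HOXD13 and HOXA10 among them, against 10.7% of all windows. The letters TGATNNAT, the form of a composite site for a PBX and a HOX protein, occurred on either strand in 3 of the 27, in HOXA2, HOXB1 and HOXD11, against 6.47% of all windows. A match is a description of the letters only.

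The libraries of HCC1806 held 18640633 to 24704877 counts and those of MDA-MB-468 held 34581754 to 44790741 counts. PRKRA measured 78.6, 82.6 and 72.1 CPM (TMM-scaled counts relative to library size) in HCC1806 controls and 37.5, 36.1 and 37.3 in depleted libraries. It fell by 1.07 on the log2 scale (SE 0.10, edgeR quasi-likelihood test, Benjamini-Hochberg adjusted p = 1.7e-05). In MDA-MB-468 it measured 41.1, 45.9 and 46.9 CPM in controls and 39.2, 35.5 and 41.6 in depleted libraries. That difference of -0.20 (SE 0.10, edgeR adjusted p = 0.958) did not pass, so the depletion in this line rests on the labels. These are RNA levels, and they do not measure the loss of PACT protein in either line. Of the receptor markers, PGR stayed between 0 and 0.300 CPM, whereas ESR1 ranged from 6.27 CPM in MDA-MB-468 up to 24.2 CPM in HCC1806 and ERBB2 from 124.1 to 209 CPM over both lines. All 7 epithelial markers were detected in both lines. Of 8 markers of blood, endothelial and stromal cells, CD3E had 0 counts in HCC1806 and at most 0.0250 CPM in MDA-MB-468, and PTPRC stayed under 0.6 CPM. Summed, the 8 genes reached 35.6 to 58.0 CPM in HCC1806, most of it COL1A1 (28.2 to 48.3 CPM), and 20.3 to 25.4 CPM in MDA-MB-468.

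The first comparison asked which HOX positions were active in each line with the control guide. HCC1806 expressed genes along all 4 clusters, whereas MDA-MB-468 expressed nearly the whole of HOXC, parts of HOXA and HOXB, and had no HOXD gene above the floor of detection. Levels are given as RPKM, here TMM-scaled CPM per kilobase of merged GENCODE exons, so that genes of different length can be set side by side. A gene was called on where all 3 control libraries reached 0.5 RPKM, at the floor where no library had more than 3 counts, and low otherwise. By this rule 32 of the 38 members were on in HCC1806 controls, 6 were low and 0 were at the floor. In MDA-MB-468 controls 17 were on, 10 were low and 11 were at the floor. Both lines shared 16 genes that were on. A further 9 were on in HCC1806 and low in MDA-MB-468, and 7 were on in HCC1806 and at the floor in MDA-MB-468. HOXC4 was the 1 gene that was on in MDA-MB-468 and low in HCC1806. Reads are shared between neighbours in these clusters: 14 members have only exon bases of their own, and HOXD4 (19.5% own), HOXD3 (25.9%), HOXA7 (37.5%), HOXC5 (40.1%) and HOXD1 (41.9%) have less than 50%. How such reads were counted, and whether by strand, is not given in the sources used here, so levels of these 5 genes are uncertain. To a lesser degree this holds for the other members with shared bases, such as HOXA4 (52.7% own), HOXA6 (59.9%) and HOXB6 (67.1%).

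**Figure D1:**
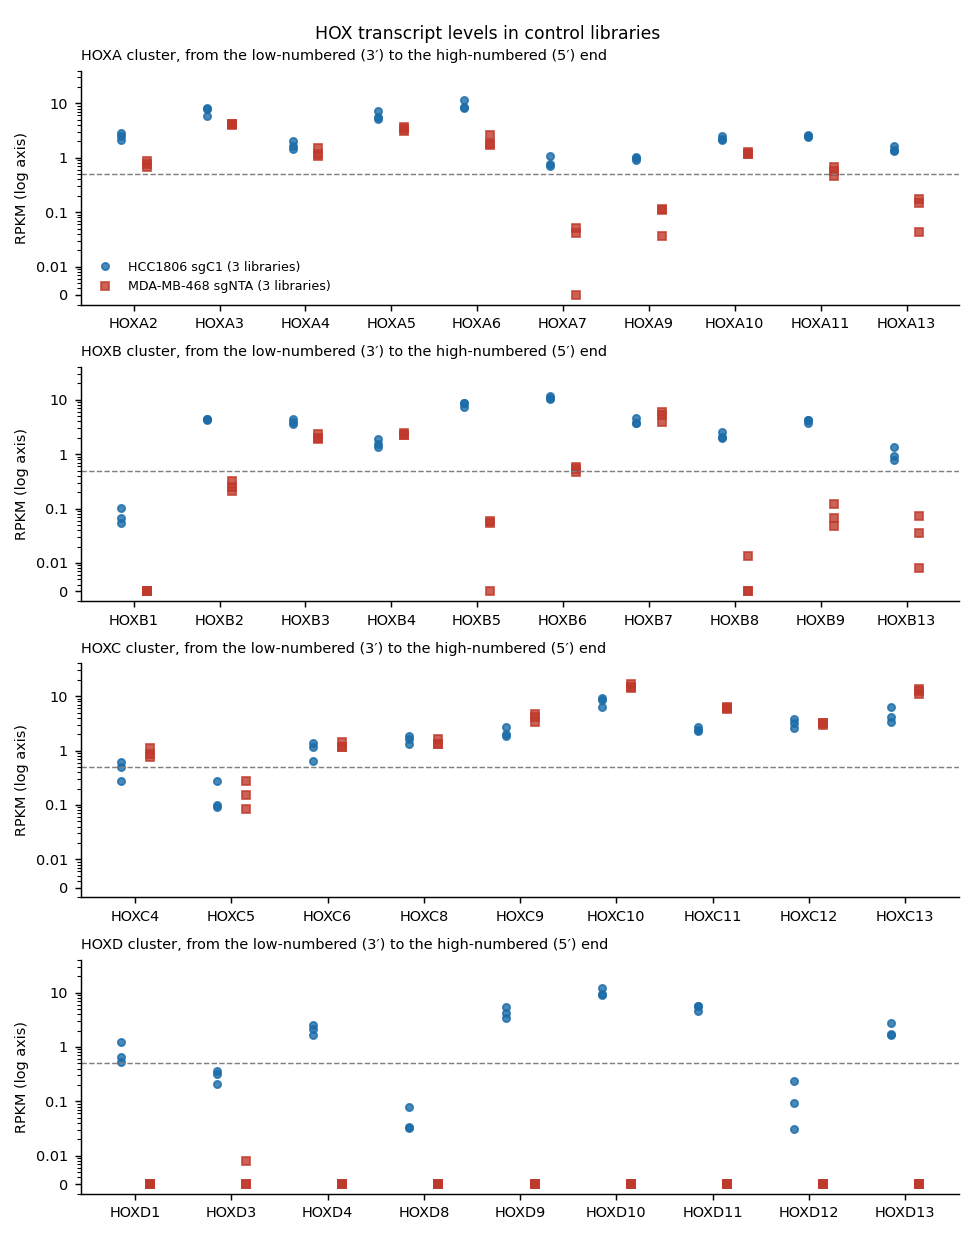
RPKM (log axis, with 0 drawn at the bottom) of the 38 HOX genes in each of the 6 control libraries (circles HCC1806, squares MDA-MB-468), ordered by cluster and paralog number; the dashed line is the 0.5 RPKM above which a gene was counted as on. HOXD genes such as HOXD10 reach up to 12.0 RPKM in HCC1806, and in MDA-MB-468 they lie at 0 apart from HOXD3, with 1 count in 1 library.

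Summed over each cluster, the order differed between the lines. In HCC1806 controls HOXB reached 40.5 ± 0.879 RPKM, HOXA 35.0 ± 4.16, HOXD 25.3 ± 1.89 and HOXC 23.7 ± 3.81 (SD, n = 3 libraries). HOXD ranged from 23.7 to 27.4 RPKM and HOXC from 19.3 to 26.0, so these neighbours in the order overlapped, while HOXA, at 31.4 to 39.6, and HOXB, at 39.6 to 41.3, nearly met. In MDA-MB-468 controls HOXC led with 44.4 ± 2.26 RPKM, and HOXA followed with 13.6 ± 0.341, HOXB with 10.4 ± 0.722 and HOXD with 0.00262 RPKM. HOXC made up 64.9% of all HOX RPKM in MDA-MB-468 and 19.0% in HCC1806. By position, the 16 genes of paralog groups 9 to 13 held 62.5% of HOX RPKM in MDA-MB-468 and 44.0% in HCC1806. The 11 genes of groups 5 to 8 held 20.3% and 35.8%, and the 11 genes of groups 1 to 4 held 17.2% and 20.2%. In RPKM, groups 9 to 13 summed to less in MDA-MB-468, 42.7 against 54.8 in HCC1806. Of these 16 genes, 6 were on in MDA-MB-468 and 15 in HCC1806. The 6 were HOXA10 and HOXC9 to HOXC13, so the larger share there was mostly that of HOXC. Over all members the sum was 124.5 ± 10.2 RPKM in HCC1806 and 68.3 ± 1.70 in MDA-MB-468.

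**Figure D2:**
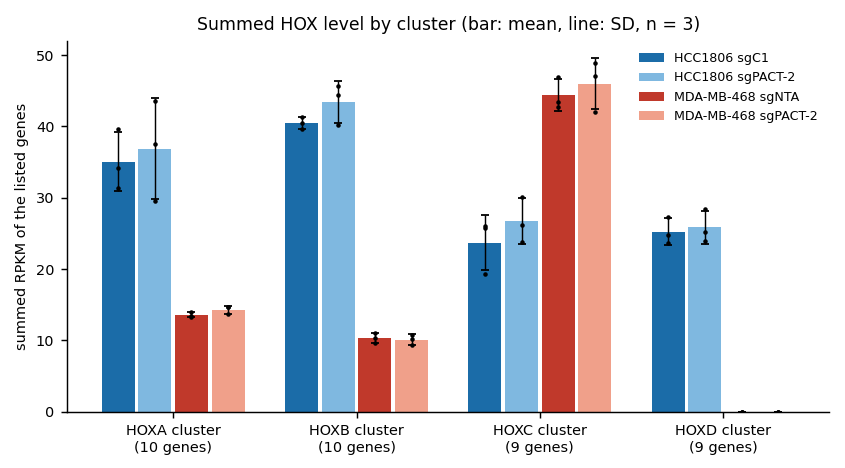
Summed RPKM of the listed genes of each cluster; bars are means of 3 libraries starting at 0, lines are SD and points are single libraries, for control and PACT-depleted libraries of both lines. HOXC is the tallest set in MDA-MB-468 (44.4 RPKM in controls) and HOXD has no visible bar there, while the 4 clusters lie between 23.7 and 40.5 RPKM in HCC1806 controls.

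The highest single genes differed between the lines. In HCC1806 controls HOXB6, a middle gene of HOXB, measured 10.6, 11.7 and 10.5 RPKM. HOXD10, known for limb and spinal patterning, measured 9.22, 12.0 and 9.38, and HOXA6 measured 8.50, 11.7 and 8.08. These 3 overlapped, so their order was not resolved. HOXB5 followed with 7.31, 8.55 and 8.88 RPKM and HOXC10 with 6.37, 8.35 and 9.10, which overlapped each other and HOXA6. In MDA-MB-468 controls HOXC10 was the highest with 16.9, 14.6 and 14.3 RPKM, above every library of HOXC13, a gene known for its role in hair and nail, at 13.4, 12.2 and 10.9. HOXC11 came next with 5.97, 5.86 and 6.27 RPKM, HOXB7 with 3.88, 5.30 and 5.86, and HOXA3 with 4.17, 3.96 and 4.24. HOXC11 and HOXB7 met at 5.86 RPKM, and HOXB7 and HOXA3 overlapped.

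The comparison of the lines was then tested with edgeR's quasi-likelihood model over all genes, as MDA-MB-468 controls minus HCC1806 controls. Of 36 members tested, 30 passed an adjusted p of 0.05, 6 higher and 24 lower in MDA-MB-468. The lines differ widely: 74.2% of all 27029 genes tested passed, 34.2% higher and 40.1% lower in MDA-MB-468. Control libraries of the lines did not overlap for 6 members that were higher and 24 that were lower, against 35.8% and 41.8% of all genes. The median log2 difference was -2.19 over the members, or -1.92 with 9 members that were at the floor in MDA-MB-468 set at their lower bound, against -0.26 over all genes tested. HOXB1 and HOXD8 did not pass the filter on low counts. By cluster, 9 of 10 HOXA genes were lower, 7 of 9 HOXB genes were lower and 1 higher, 5 of 9 HOXC genes were higher and 0 lower, and 8 of 8 HOXD genes were lower. A gene that passed the filter on low counts through its HCC1806 libraries alone had to differ, and this holds for 13 of the 24 lower members: the 8 HOXD genes, HOXA7, HOXA9, HOXB5, HOXB8 and HOXB13. These counts and the median over the members are therefore descriptions. Of the 23 members that passed the filter in both lines, 6 were higher and 11 lower. HOXB9, among the 11, passed in MDA-MB-468 only through the 3 depleted libraries (38, 36 and 39 counts, against 11, 4 and 7 in controls). Among the control libraries it too passed through HCC1806 alone, so the same limit holds for it.

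HOXD counts came almost entirely from HCC1806. The 9 genes had 4001 counts in the 3 HCC1806 control libraries, 1 count in the 3 MDA-MB-468 control libraries, in HOXD3, and 0 counts in the 3 depleted MDA-MB-468 libraries. Folds against the floor of 3 counts per library, 0.0832 CPM, are lower bounds that cover counting error only. HOXD10, at 24.8, 32.3 and 25.2 CPM in HCC1806 controls, was at least 329.7-fold lower in MDA-MB-468, and HOXD11, which shares exon bases with it, was at least 133.9-fold lower. HOXD9, with 3.39, 4.26 and 5.46 RPKM in HCC1806, was at least 98.2-fold lower, and HOXD13, the 5′-most gene of the cluster and a digit patterning gene, with 2.75, 1.72 and 1.63 RPKM, at least 54.7-fold lower. HOXD4, with 2.14, 2.51 and 1.68 RPKM, was at least 37.1-fold lower, HOXD1 at least 19.1-fold and HOXD3 at least 12.6-fold. HOXD12 and HOXD8 had 1 to 7 and 2 to 5 counts per HCC1806 control library, so their bounds of 1.93-fold and 1.53-fold say little.

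The noncoding genes inside the HOXD cluster showed the same split, though antisense genes may share reads with their partners. HAGLR measured 11.5, 10.1 and 10.2 CPM in HCC1806 controls, HOXD-AS2 3.54, 3.94 and 4.11, and HAGLROS 2.46, 2.69 and 1.74. All 3 had 0 counts in each of the 6 MDA-MB-468 libraries. Of the coding genes next to the cluster, LNPK, MTX2 and ATP5MC3 did not share it. LNPK measured 52.7, 57.3 and 57.1 CPM in MDA-MB-468 controls, MTX2 22.0, 18.8 and 18.2, and ATP5MC3 59.9, 54.7 and 60.3. In HCC1806 controls LNPK measured 54.3, 35.0 and 39.0 CPM, which overlaps MDA-MB-468. All 3 genes were higher in MDA-MB-468 than in HCC1806 by the test, by 0.38 (SE 0.14, adjusted p = 0.0226), 1.13 (SE 0.13) and 1.42 (SE 0.11) on the log2 scale in edgeR's test. EVX2, the homeobox gene beside HOXD13, had 0 counts in MDA-MB-468 and at most 0.200 CPM in HCC1806, too low to say whether it shared the split. The cluster lies 2.24 Mb from PRKRA on chromosome 2, and it had counts in both groups of HCC1806 and none beyond 1 in either group of MDA-MB-468.

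**Figure D3:**
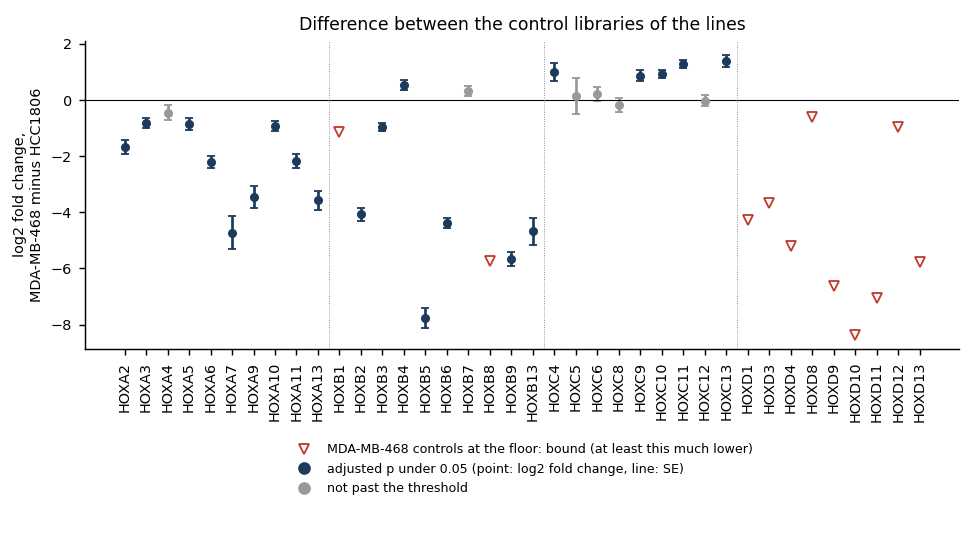
Log2 difference between MDA-MB-468 and HCC1806 controls for each HOX gene, by cluster, from edgeR with SE bars; filled dark points passed the threshold and grey ones did not, and open triangles show, for genes at the floor in MDA-MB-468, the least by which they were lower. Points of HOXC lie from -0.17 to 1.40, and every HOXA and HOXD point lies below 0.

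HOXC was the cluster that was higher in MDA-MB-468. HOXC13 measured 3.30, 6.32 and 4.21 RPKM in HCC1806 controls against 13.4, 12.2 and 10.9, a log2 difference of 1.40 (SE 0.22, edgeR adjusted p = 1.9e-05). HOXC11 measured 2.67, 2.41 and 2.32 RPKM against 5.97, 5.86 and 6.27, a difference of 1.29 (SE 0.14, edgeR adjusted p = 1.9e-07). HOXC10 went from 6.37, 8.35 and 9.10 to 16.9, 14.6 and 14.3 RPKM, a difference of 0.94 (SE 0.14). HOXC9 measured 1.89, 2.00 and 2.75 RPKM against 4.07, 3.35 and 4.65, a difference of 0.86 (SE 0.20). HOXC4, which shares exons with HOXC5 and HOXC6, measured 0.490, 0.279 and 0.622 RPKM against 0.767, 0.882 and 1.13, a difference of 0.99 (SE 0.32, edgeR adjusted p = 0.0101). In these 5 genes no HCC1806 control library reached the level of any MDA-MB-468 control library. The other 4 HOXC genes overlapped between the lines, with differences of -0.17 (SE 0.25) for HOXC8, -0.02 (SE 0.19) for HOXC12, 0.22 (SE 0.27) for HOXC6 and 0.13 (SE 0.64) for HOXC5; the last pair turned negative when only library size was used for scaling. HOTAIR, the noncoding gene antisense to the 5′ part of HOXC, was 4.01 higher on the log2 scale (SE 0.17, edgeR adjusted p = 1.4e-12), with 1.5, 1.34 and 1.91 CPM in HCC1806 controls and 23.3, 27 and 26.4 in MDA-MB-468.

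HOXB was broken up in MDA-MB-468. The 3 positions that were on were HOXB3, HOXB4 and HOXB7, while the genes between and beside them were low or at the floor. HOXB6, 1 of the 3 highest HCC1806 genes, measured 0.471, 0.526 and 0.575 RPKM in MDA-MB-468, a difference of -4.37 (SE 0.19, edgeR adjusted p = 1.3e-12). HOXB5 had 358, 390 and 428 counts in HCC1806 controls and 4, 4 and 0 in MDA-MB-468. HOXB8 had 124, 94 and 96 counts against 1, 0 and 0, at least 53.8-fold lower. HOXB2, a hindbrain patterning gene, differed by -4.07 on the log2 scale (SE 0.24), HOXB13, known from prostate and colon, by -4.68 (SE 0.48) and HOXB9 by -5.66 (SE 0.25). The 3 genes that were on in MDA-MB-468 differed less. HOXB3 differed by -0.95 (SE 0.14), HOXB7 overlapped between the lines with a difference of 0.33 (SE 0.18, edgeR adjusted p = 0.112), and HOXB4, a gene known from blood stem cells, was higher by 0.55 (SE 0.18, edgeR adjusted p = 0.01), or by 0.30 with library size only, where it did not pass. HOXB3 shares exon bases with HOXB4 and HOXB6. The antisense genes HOXB-AS3 and HOXB-AS4 were low in MDA-MB-468 too, with 11.7 to 16.2 and 3.35 to 3.63 CPM in HCC1806 controls and 1 and 0 counts in the 3 MDA-MB-468 controls.

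All 10 HOXA genes had lower values in MDA-MB-468, and HOXA4, at -0.44 (SE 0.28, edgeR adjusted p = 0.164), did not pass. HOXA2, HOXA3, HOXA4, HOXA5, HOXA6 and HOXA10 were on in MDA-MB-468. HOXA6 measured 1.78, 1.73 and 2.60 RPKM there, a log2 difference of -2.20 from HCC1806 (SE 0.21). HOXA3 differed by -0.81 (SE 0.17), HOXA5, which is known as a p53 regulator in breast cells, by -0.85 (SE 0.20), HOXA10 by -0.91 (SE 0.18) and HOXA2 by -1.67 (SE 0.26). The other 4 genes were low in MDA-MB-468, with differences for HOXA7 (-4.73, SE 0.58, 0 to 4 counts per MDA-MB-468 control library), HOXA13 (-3.56, SE 0.34), HOXA9 (-3.45, SE 0.40) and HOXA11 (-2.17, SE 0.25), the last close to that of HOXA6. Of the noncoding genes here, HOTAIRM1, at the low-numbered end, differed by -0.61 (SE 0.15) and HOTTIP, at the HOXA13 end, by -3.07 (SE 0.66).

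The second comparison asked what sgPACT-2 changed in HCC1806. No HOX gene passed the test: 0 of 36 tested were called by edgeR, while 2.49% of all genes were. At an unadjusted p under 0.05 there was 1 member, HOXB9, against 14.5% of all genes, and DESeq2 called the same 1. The median log2 difference was 0.14 over the members and 0.01 over all genes tested, with 26 members positive and 10 negative, beside 50.9% of all genes positive. With library size alone 32 were positive and 4 negative, beside 65.9% of all genes. All 9 HOXC members were positive under both scalings, with TMM from 0.06 for HOXC12 to 0.37 for HOXC9, and their summed level was 19.3 to 26.0 RPKM in controls and 23.8 to 30.2 in depleted libraries, which overlap. In depleted libraries 32 members were on, as many as in controls, 6 of them in HOXD.

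HOXB9 measured 4.17, 4.23 and 3.69 RPKM in HCC1806 controls and 5.58, 5.46 and 6.51 in depleted libraries, and the groups did not overlap. Its log2 difference was 0.54 (SE 0.17, edgeR adjusted p = 0.126, DESeq2 adjusted p = 0.0352). HOXB2, with 4.28, 4.43 and 4.51 RPKM against 4.61, 6.57 and 5.29, was the other member whose libraries separated upward, at 0.32 (SE 0.19, edgeR adjusted p = 0.507). These 2 of 36 compare with 8.51% of all genes that separated upward. HOXD3 was the 1 member that separated downward, against 8.17% of all genes, with 0.212, 0.315 and 0.358 RPKM in controls and 0.138, 0.134 and 0.188 after depletion, a difference of -0.93 (SE 0.56) at 10 to 30 counts per library. HOXC9 measured 1.89, 2.00 and 2.75 RPKM against 3.01, 2.94 and 2.62, and the groups overlapped. HOXA10 (-0.24, SE 0.18) and HOXB13 (-0.29, SE 0.36) had the next smallest p-values among the negative differences, and both overlapped. Of the highest genes, HOXB6 had 10.6, 11.7 and 10.5 RPKM against 10.3, 10.5 and 10.9, a difference of -0.05 (SE 0.15), and HOXD10 differed by -0.01 (SE 0.16).

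Of 7 epithelial markers, 3 were called in the same HCC1806 comparison, beside 2.49% of all genes called in either direction. EPCAM, CDH1 and KRT5 fell by 0.55, 0.38 and 0.92 on the log2 scale (edgeR adjusted p = 0.0335, 0.0373 and 0.0106). The other 4, KRT8, KRT14, KRT18 and EGFR, did not pass. The 7 markers summed to 2976 to 3394 CPM in controls and 2258 to 2664 CPM in depleted libraries. Their part in the HOX values was not tested.

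**Figure D4:**
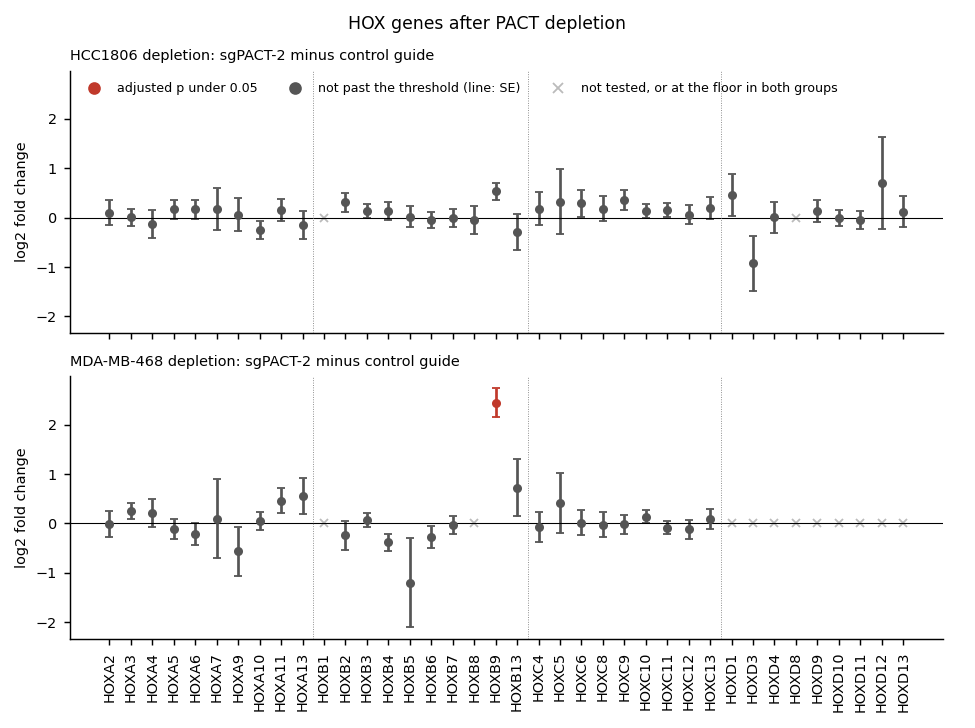
Log2 difference between PACT-depleted and control libraries for each HOX gene in HCC1806 and MDA-MB-468, with SE bars from edgeR; crosses mark genes that were not tested or were at the floor in both groups. HOXB9 in MDA-MB-468, at 2.45, is the 1 point past the threshold, and most others lie within 1 of 0.

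The same guide in MDA-MB-468 changed 1 HOX gene. HOXB9 rose, and it was the only member of 36 tested that edgeR called, against 0.17% of all genes tested, every one of which rose. At an unadjusted p under 0.05 there were 2 members, HOXB9 and HOXB4, against 5.27% of all genes. A further 9 members were at the floor in both groups, the 8 tested HOXD genes and HOXB8. Of the 27 others, 13 were positive and 14 negative, with a median log2 difference of -0.01, beside -0.01 over all genes tested. HOXC, the leading cluster, summed to 42.7 to 46.9 RPKM in controls and 42.0 to 48.9 in depleted libraries.

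HOXB9 (ENSG00000170689, chr17:48621159-48626356, minus strand) is a posterior HOXB gene that has been studied in breast cancer spread. In MDA-MB-468 it had 11, 4 and 7 counts in controls and 38, 36 and 39 in depleted libraries. This is 0.119, 0.0471 and 0.0677 RPKM against 0.420, 0.420 and 0.465, with no overlap. The log2 difference was 2.45 (SE 0.29, edgeR adjusted p = 4.1e-04), from 0.201 ± 0.0952 to 1.12 ± 0.0675 CPM (SD, n = 3 libraries each). The depleted level was still under the 0.5 RPKM taken as on, and under the 3.69 to 4.23 RPKM of HCC1806 controls. All 2581 exon bases of the gene are its own, although it lies within the span of HOXB7 on the same strand. HOXB7 measured 3.88, 5.30 and 5.86 RPKM in controls and 5.71, 4.43 and 4.65 after depletion, a difference of -0.02 (SE 0.18). The other neighbour, HOXB8, had 1, 0 and 0 counts against 1, 2 and 0, and HOXB13 had 1, 4 and 10 against 7, 6 and 10. The effect on HOXB9 was larger in MDA-MB-468 than in HCC1806 by 1.91 (SE 0.34, edgeR adjusted p of the interaction = 0.0343), the 1 member past the threshold there, against 0.122% of all genes and 0.0222% in this direction. Leaving out 1 library at a time, that difference between the lines kept its sign but lost the threshold in 9 of 12 fits, with adjusted p up to 0.165. It passed without HCC1806 depleted replicate 1 or 3 or MDA-MB-468 control replicate 1. Line and control guide cannot be told apart in this difference.

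**Figure D5:**
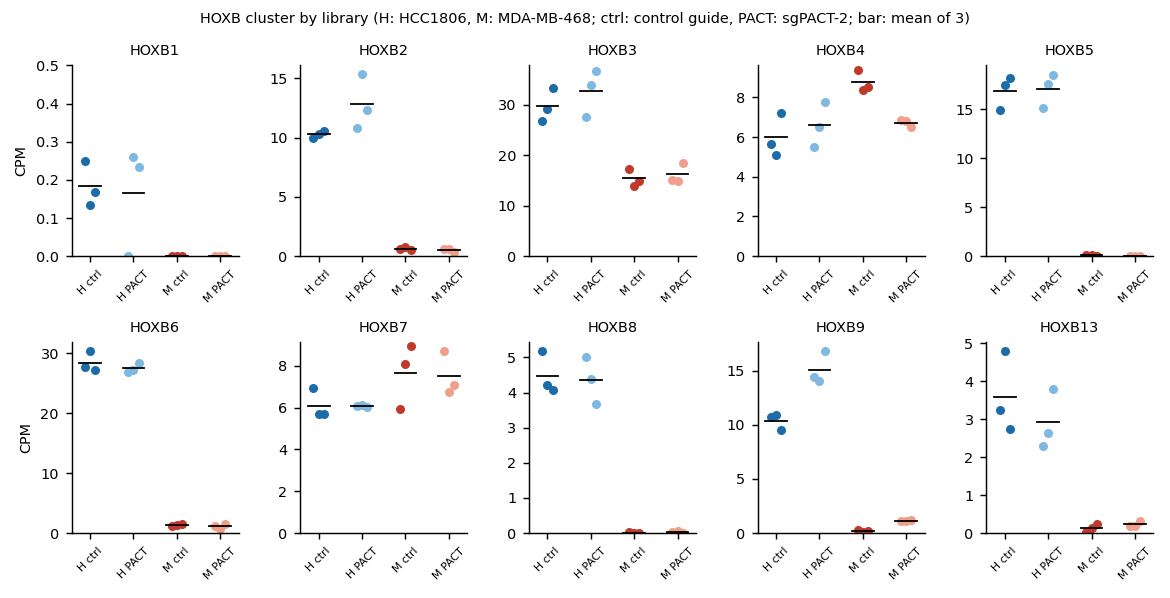
CPM of the 10 HOXB genes in each library of HCC1806 (H) and MDA-MB-468 (M), control and PACT-depleted, with 1 point per library, the mean as a bar and an own axis from 0 for each gene. HOXB9 separates in both lines, from at most 0.307 to at least 1.08 CPM in MDA-MB-468 and from at most 10.9 to at least 14.1 CPM in HCC1806.

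No other member passed in MDA-MB-468. HOXB4 measured 2.5, 2.23 and 2.27 RPKM in controls and 1.83, 1.82 and 1.73 in depleted libraries, which did not overlap, at -0.38 (SE 0.17, edgeR adjusted p = 0.929). It was the 1 member that separated downward, against 6.94% of all genes. HOXA3, the highest HOXA gene, separated upward together with HOXB9, against 6.2% of all genes, with 4.17, 3.96 and 4.24 RPKM against 5.38, 4.85 and 4.51 and a difference of 0.25 (SE 0.17). HOXA11 (0.459, 0.567 and 0.671 RPKM against 1.06, 0.639 and 0.640) and HOXA13 (0.0438, 0.150 and 0.177 against 0.213, 0.142 and 0.194) overlapped, at 0.46 (SE 0.26) and 0.56 (SE 0.36). HOXA11 thereby reached 0.5 RPKM in all 3 depleted libraries but in only 2 of the controls. HOXB5 had 4, 4 and 0 counts in controls and 1, 0 and 2 in depleted libraries, too few for a fold. HOXA9, with 4, 11 and 14 counts against 8, 3 and 7, and HOXB13 overlapped, at -0.56 (SE 0.50) and 0.73 (SE 0.58). HOXB6 measured 0.471, 0.526 and 0.575 RPKM against 0.471, 0.266 and 0.567, a difference of -0.27 (SE 0.22).

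Partners and regulators of HOX genes were read from 6 further lists. In HCC1806, 5 of 79 tested genes passed the test on depletion, beside 2.49% of all genes. The counts were 0 of 8 TALE cofactors tested, 2 of 19 Polycomb genes, 1 of 10 Trithorax genes and H3K27 demethylases, 0 of 13 retinoic acid and CDX genes, 0 of 18 noncoding genes of the clusters and 2 of 11 flanking coding genes. KDM6B, a demethylase that removes the Polycomb mark H3K27me3, rose from 53.2, 70.0 and 64.8 CPM to 113, 105 and 109, a change of 0.80 (SE 0.12, edgeR adjusted p = 0.0017). RBBP7, a histone-binding subunit shared by Polycomb and other complexes, fell by 0.60 (SE 0.11, edgeR adjusted p = 0.0070), from 65.2, 56.1 and 59.0 to 45.2, 39.3 and 34.4 CPM. Of the flanking genes, CBX5 beside HOXC fell by 0.43 (SE 0.11, edgeR adjusted p = 0.036) and ATP5MC3 beside HOXD by 0.45 (SE 0.11, edgeR adjusted p = 0.0396). When 1 library was left out at a time, KDM6B and RBBP7 passed in 12 of 12 fits, CBX5 lost the threshold in 8 and ATP5MC3 in 9. Both were lost without HCC1806 control replicate 1, HCC1806 sgPACT-2 replicate 2, any of the 3 MDA-MB-468 controls, or MDA-MB-468 sgPACT-2 replicate 2 or 3. CBX5 was also lost without HCC1806 control replicate 3, and ATP5MC3 without HCC1806 control replicate 2 or sgPACT-2 replicate 3. With HCC1806 fitted alone, KDM6B passed, and RBBP7, CBX5 and ATP5MC3 did not. Of the 2 genes with the smallest p-values in each list, those that did not pass were HOTAIR (0.58, SE 0.19, edgeR adjusted p = 0.147), HAGLROS (-0.72, SE 0.39), KDM6A (0.32, SE 0.12), ALDH1A3 (-0.28, SE 0.11), CYP26B1 (0.40, SE 0.20), MEIS3 (0.52, SE 0.35) and PBX3 (-0.24, SE 0.18).

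In MDA-MB-468 the only gene of these lists past the threshold was PBX4, a TALE cofactor, 1 of 79 tested, beside 0.17% of all genes. It rose from 1.89, 2.28 and 2.45 CPM to 6.04, 4.30 and 5.14, a log2 change of 1.22 (SE 0.19, edgeR adjusted p = 0.0069), and lost the threshold when control replicate 1 or depleted replicate 1 was left out. In HCC1806 PBX4 measured 11.1, 8.95 and 10.2 CPM in controls and 12.2, 9.97 and 11.4 after depletion, which overlap, and the difference between the lines did not pass (0 of 8 cofactors called in the interaction). KDM6B, RBBP7, CBX5 and ATP5MC3, which changed in HCC1806, differed by 0.11 (SE 0.12), -0.11 (SE 0.11), -0.07 (SE 0.10) and -0.13 (SE 0.11) in MDA-MB-468, and none passed there. Of the 2 genes with the smallest p-values in each list, the others were MEIS3 (0.84, SE 0.58), PHC3 (0.15, SE 0.11), KDM6A (0.21, SE 0.12), DPY30 (-0.18, SE 0.12), RARB (-0.43, SE 0.27), ALDH1A3 (-0.14, SE 0.11), HOTAIRM1 (0.28, SE 0.14), HOXB-AS2 (0.62, SE 0.43) and SMUG1 (-0.10, SE 0.12).

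Between the lines, by contrast, most of these genes differed. In MDA-MB-468 controls 10 of 19 Polycomb genes were higher and 4 lower, and the H3K27 methyltransferases EZH2 and EZH1 differed in opposite directions. EZH2 stood at 122 ± 3.78 CPM against 31.9 ± 4.58 in HCC1806, and EZH1 at 22.1 ± 0.137 CPM against 63.2 ± 4.77 (SD, n = 3). Of the TALE cofactors, PBX3 was higher, by 1.09 (SE 0.17), and MEIS3 and PBX4 were lower, at -4.66 (SE 0.48) and -2.19 (SE 0.19). All 13 tested retinoic acid and CDX genes differed, 7 higher and 6 lower. CDX2, a homeobox activator of HOX genes in the posterior embryo, measured 5.59, 5.19 and 4.74 CPM in HCC1806 controls and 0.111, 0.0608 and 0.225 in MDA-MB-468. CRABP2, which carries retinoic acid to its receptors, stood at 1.97 ± 0.902 CPM in HCC1806 and 452 ± 42.5 in MDA-MB-468. Of the 18 noncoding genes of the clusters 2 were higher in MDA-MB-468, HOTAIR and HOXC13-AS, both beside HOXC, and 12 were lower. These shares stand beside 34.2% of all genes higher and 40.1% lower. HAGLR, HAGLROS, HOXD-AS2 and HOXB-AS4 had 0 counts in every MDA-MB-468 library. They passed the filter on low counts through HCC1806 alone and could only be lower. The same limit holds for other genes near 0 in MDA-MB-468, such as HOXB-AS3 and CDX2, so these counts are descriptions. The part of these differences in the HOX levels was not tested.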

How the data were processed

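Total RNA of 12 libraries was sequenced after rRNA depletion, per the labels' protocols. The authors deposited 1 table of raw, unnormalized counts, with 1 row per Ensembl gene and 1 column per library. Trimmomatic 0.36, STAR 2.5.2b, featureCounts, Subread 1.5.2 and the build GRCh38 are named in the submitters' processing notes. The annotation, the strand setting and the handling of reads in overlapping genes are not given in the sources used here. Rows without a gene name held 0.0284% of counts and were tested where they passed the filter on low counts.

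Genes passing filterByExpr (27029 of 44375 with a count) were fitted with edgeR 4.0.16 in R 4.3.3: TMM scaling, 1 quasi-likelihood model of all 12 libraries with 1 coefficient per group, two-sided tests, and Benjamini-Hochberg adjustment over all genes tested. A gene was called at an adjusted p under 0.05. The biological coefficient of variation was 0.171, and 0.204 in HCC1806 and 0.0936 in MDA-MB-468 fitted alone. CPM are TMM-scaled, and RPKM divide them by merged exon length from GENCODE 29, which matched 56898 of 57500 genes. Depth sets a floor of 3 counts per library, and floors cover counting error only. Alternatives were DESeq2 1.42.0, other scalings, filters and thresholds, a single line alone, a replicate block and leaving out each library. Scripts were tested on simulated data. Figures were drawn with matplotlib 3.10.9 in Python 3.11.15.

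The members, the lists and the naming rule were chosen with earlier results of these data known. The rule gives every library for members called on depletion or in the interaction, the 5 highest members of each line, the 5 largest and 5 smallest called line differences, and the 3 smallest p-values per direction and depletion. Of other lists it names called genes and the 2 smallest p-values in each line. EZH2, EZH1, CDX2, CRABP2, the other HOX genes with values and the remaining genes named beside a cluster were named after their values were seen. Some genes that the rule names are not reported here.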

Additional observations from a re-analysis of the deposited data

Results flagged for a closer look

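The response of HOXB9 to sgPACT-2, each time against the control guide of the line, differed between the lines. Line and control guide cannot be told apart in this difference. The response was larger in MDA-MB-468 than in HCC1806 by 1.91 on the log2 scale (SE 0.34, edgeR adjusted p of the interaction = 0.0343). HOXB9 was higher in 3 of 3 depleted libraries than in every control library in both lines. Leaving out 1 library moved the difference between 1.68 and 2.33 and its edgeR adjusted p between 0.0189 and 0.165. The threshold was kept without HCC1806 depleted replicate 1, HCC1806 depleted replicate 3 or MDA-MB-468 control replicate 1. The difference is one of ratios, and the MDA-MB-468 ratio rests on 11, 4 and 7 control counts. In CPM, HOXB9 went from at most 0.307 to at least 1.08 in MDA-MB-468 and from at most 10.9 to at least 14.1 in HCC1806.

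The RNA of PRKRA, the targeted gene, fell less in MDA-MB-468 than in HCC1806, a difference of 0.87 (SE 0.14, edgeR adjusted p of the interaction = 0.0198). Its libraries separated in HCC1806 and overlapped in MDA-MB-468. Line and control guide cannot be told apart here either, and RNA counts do not measure the loss of PACT protein.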

How the results depend on the processing

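The count of HOX genes called stayed at 0 in HCC1806 under the alternatives run except DESeq2, which called 1 (HOXB9), and at 1 (HOXB9) in MDA-MB-468 under all 21 alternatives. In the interaction the count was 1 except for 0 at an adjusted p under 0.01 and a range of 0 to 1 when leaving out 1 library. In the line difference it ranged from 22 to 32, and from 29 to 30 without 1 library; library size alone gave 5 higher and 25 lower. Genes on ranged from 27 to 34 in HCC1806 and from 15 to 20 in MDA-MB-468 controls. The partner and regulator lists had 5 genes called in HCC1806, 2 with the line fitted alone and 3 to 6 without 1 library; in MDA-MB-468 they had 1, and 0 to 1 without 1 library. PRKRA kept its direction and side of the threshold in all 19 alternatives in each line. Library size alone moved the median of all genes to 0.13 in the HCC1806 depletion and to -0.51 in the line difference, and the genes called in HCC1806 from 314 higher and 358 lower to 647 higher and 146 lower. HOXB7 passed in the line difference (0.49) without MDA-MB-468 control replicate 1. Same-numbered control and depleted libraries had correlations of deviations of 0.231, 0.137 and 0.0771 in HCC1806 and 0.0284, 0.0156 and 0.0240 in MDA-MB-468. Differently numbered ones ranged from -0.223 to 0.143 in HCC1806 and from -0.0337 to 0.00985 in MDA-MB-468. A weak pairing by number is therefore possible, and the main model had no replicate block. With a replicate block the counts of HOX genes called were 0, 1, 1 and 30, as without it. In MDA-MB-468, genes at 0 to 10 counts are limited by depth.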
